A study of Bos taurus with 18 samples.

Results

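The comparison described here asks whether the endometrium of cows given a progestin mixture on day 4 of the cycle differed from its own untreated state on day 7 in another way than the endometrium of cows given progesterone alone. The responses come from 12 of the 18 RNA-seq libraries of the series, from 6 Holstein cows (Bos taurus). In the 17-OHPC/P4 arm, animals A, B and C received a depot injection of 100 mg 17α-hydroxyprogesterone caproate (17-OHPC) together with 10 mg progesterone (P4). In the P4 arm, animals D, E and F received 100 mg P4. Each cow gave a day 7 cytobrush sample in its treatment cycle and a day 7 sample in an earlier cycle that was Ovsynch-synchronized but not injected. A further sample of each cow, from day 4 of that untreated cycle, entered the same fits. It bears on the estimate of gene variability and also on the fitted differences. The brush was passed into the horn next to the ovary that carried the corpus luteum, and it collects mainly surface cells. The response of a gene in an animal is its log2 CPM (counts scaled to a common library total, with TMM factors, the trimmed mean of M-values) on treated day 7 minus that on control day 7. The difference reported is the response of A, B and C minus that of D, E and F, as fitted to the counts with edgeR. It is not the plain difference of the mean responses. It can depart from it at low or variable levels and through the day 4 samples in the fit. For OXTR the fitted difference was -0.10, with mean responses of -0.46 in A, B and C and -0.56 in D, E and F. Fitted to the 12 day 7 libraries alone, it was 0.10. For NR1I3 the difference fitted to all 18 libraries was -3.08, with mean responses of -0.34 and 2.35.

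Progesterone acts on the uterus mainly through the nuclear progesterone receptor, PGR, which endometrial epithelium loses as the luteal phase proceeds while stromal cells keep it. Raising progesterone early in the cycle is known to bring forward the secretory changes of the bovine endometrium that precede conceptus elongation. 17-OHPC is a synthetic ester of 17α-hydroxyprogesterone: where progesterone carries a hydrogen at the esterified position, it carries a hydroxyl group joined to caproic acid. The main agent had the same mass in both arms, but the dose of P4 itself did not match, so the comparison is of 2 injections and not of 2 molecules at one matched exposure. The arms are different cows, and the treated cycle followed the control cycle in all 6, so injection and cycle order cannot be told apart within an arm, and cow and injection cannot be told apart between arms.

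The 12 libraries held 30112365 to 39463921 counts assigned to genes. Mitochondrially encoded genes took 12.4% of the counts in the treated library of D and between 5.55% and 9.65% in the other 11. Red blood cell markers summed to 365 CPM in the treated and 4182 CPM in the control library of C, against 6.47 to 12.1 CPM in all other libraries. Epithelial KRT8 was present at 316 to 801 CPM and the leukocyte marker PTPRC at 33.6 to 72.1 CPM in these libraries. A sample of a mixed tissue cannot tell fewer cells of a type from less RNA per cell, which holds for every gene below.

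No gene passed the test for a difference between the arms. Of 19638 genes tested with edgeR's quasi-likelihood test, with animal as a block, 0 (0%) had a Benjamini-Hochberg adjusted p under 0.05, and the smallest adjusted p was 1. At an unadjusted p under 0.05 stood 492 genes. Of these, 196 (0.998% of all tested) had the higher response in the 17-OHPC/P4 arm and 296 (1.51%) the lower one. DESeq2 called 3 genes, and limma on the 6 responses called 0, with 441 at an unadjusted p under 0.05. Each arm on its own likewise gave 0 called genes with edgeR for treated against control. In the 17-OHPC/P4 arm (0%) there were 850 genes at an unadjusted p under 0.05, and DESeq2 called 8. In the P4 arm (0%) there were 881 such genes, and DESeq2 called 23. The median standard error of a difference was 0.52 log2 units and the median half-width of its 95% interval was 1.15. The interval lay within 2-fold in both directions for 6025 genes (30.7%). For the remaining genes the interval reached past 2-fold in at least 1 direction, so the absence of calls does not show that the injections acted alike.

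Correlations of the responses within arms overlapped those between arms. In A, B and C, 23.3%, 15.3% and 10.5% of the tested genes had a response beyond 2-fold, against 21.4%, 18.8% and 32.8% in D, E and F. Animal F had the largest share of the 6 and animal C the smallest. Over the 19638 genes, the responses of A and B correlated at 0.18, of A and C at 0.30 and of B and C at 0.06 (Pearson r, given as a description over genes, which are not replicates). Within the P4 arm the correlation was 0.15 for D and E, -0.33 for D and F and -0.14 for E and F. Across the arms it reached 0.41 for A and F and 0.42 for B and F, and it was lowest for B and D, at -0.34. The responses of F were therefore more like those of A and B than like those of D and E, its own arm. The points of each pair share the composition of the same 4 libraries, and their part in these values was not tested. Without F, 2763 genes stood at an unadjusted p under 0.05 (877 higher and 1886 lower in the 17-OHPC/P4 arm), the smallest adjusted p was 0.0763 and 0 genes were called. Leaving out A gave 284 such genes and leaving out E gave 297, with 0 called in either case.

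**Figure D1:**
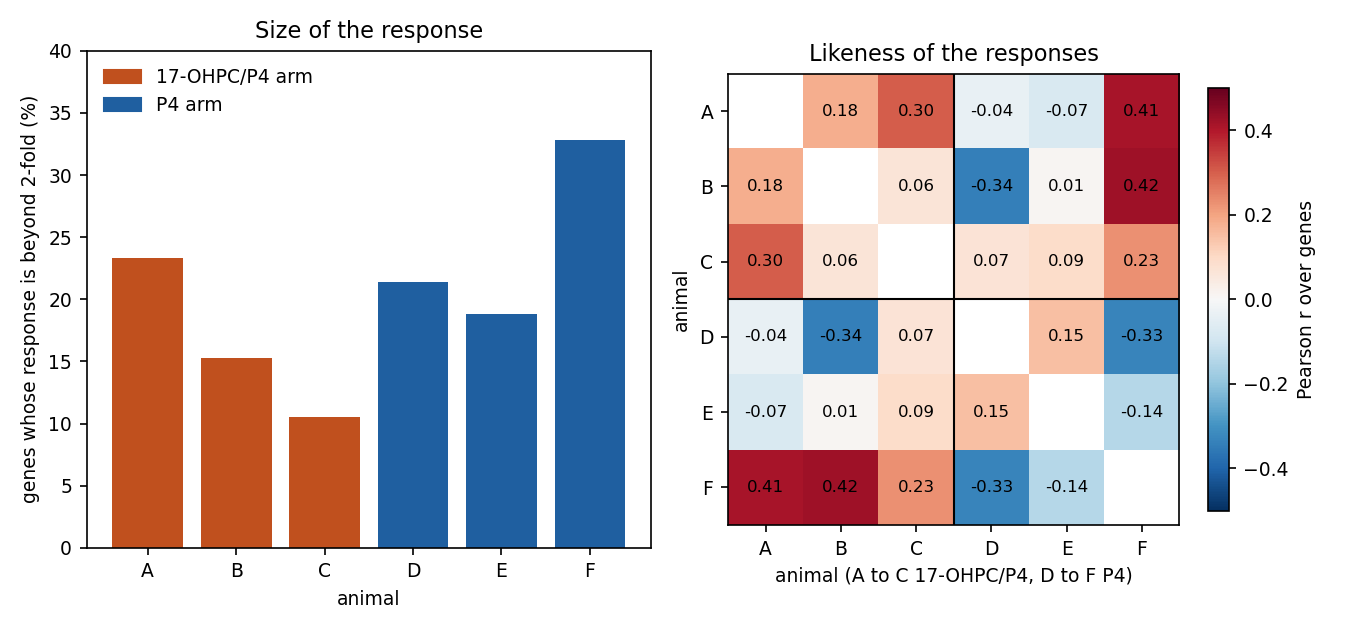
Left, percent of tested genes whose response (log2 CPM treated day 7 minus control day 7) is beyond 2-fold, in each animal of the 17-OHPC/P4 arm (A to C) and the P4 arm (D to F). Right, Pearson correlation of the responses over 19638 genes for each pair of animals. Animal F has the tallest bar, 32.8%, and its correlations are 0.41, 0.42 and 0.23 with A, B and C, against -0.33 and -0.14 with D and E.

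Genes whose responses separated the arms without overlap were found in both directions. For 728 genes (3.71%) all 3 responses of the 17-OHPC/P4 arm lay above all 3 of the P4 arm, and for 833 genes (4.24%) all lay below. A stricter pattern, positive in A to C and negative in D to F, held for 223 genes (1.14%), and its mirror image for 242 genes (1.23%). Over all tested genes the median difference was -0.05 and 45.5% of differences were positive.

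The 10 genes with the smallest p among positive differences all had non-overlapping responses, and none was called (adjusted p = 1 for each, edgeR's quasi-likelihood test). The first was RNASE4 (ENSBTAG00000019612), a secreted ribonuclease of the pancreatic ribonuclease family. It had 39.9, 51.7 and 26.6 CPM in the treated libraries of A, B and C, against 20.5, 36.1 and 26.4 CPM in their control libraries. Libraries of D, E and F had 36.5, 28.7 and 30.4 CPM in treated, against 69.1, 34.3 and 48.2 CPM in control libraries. All 3 animals of the P4 arm were lower in the treated cycle, while A and B were higher and C was level. The difference was 1.10 ± 0.29 (log2, SE, 95% interval 0.46 to 1.73, unadjusted p = 0.00294 by edgeR's quasi-likelihood test).

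ENPP4 (ENSBTAG00000003499), a membrane-bound hydrolase of the ectonucleotide pyrophosphatase family, was higher when treated in each animal of the 17-OHPC/P4 arm. It had 797, 380 and 338 CPM in treated A, B and C, against 505, 211 and 199 CPM in their controls. The P4 arm animals D, E and F had 444, 259 and 379 CPM treated, against 953, 573 and 312 CPM in control libraries. The responses were 0.66, 0.85 and 0.77 in A, B and C, against -1.10, -1.14 and 0.28 in D, E and F, so F again lay apart from D and E. The difference was 1.39 ± 0.41 (SE, 95% interval 0.49 to 2.30). Control levels also lay apart: B and C had the lowest control values of the 6 animals, and D and E the highest.

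Also in this set was HSD17B14, a short-chain dehydrogenase that oxidises estradiol. Its responses were 0.28, 0.59 and -0.26 in A, B and C, against -0.87, -1.89 and -2.69 in D, E and F, at levels of 0.174 to 3.83 CPM. The difference was 2.10 ± 0.62 (SE). BOLA3, which takes part in iron-sulfur cluster assembly in mitochondria, had responses of 0.49, 0.35 and 0.59 in the 17-OHPC/P4 arm, against -0.35, -0.84 and -0.25 in the P4 arm, and a difference of 0.95 ± 0.28. DCUN1D5, a cofactor of cullin neddylation, had a difference of 0.997 ± 0.308, with positive responses in A to C and negative ones in D to F. The same sign pattern held for DERA, an aldolase of deoxyribose phosphate, with a smaller difference of 0.62 ± 0.20. ADGRG6, an adhesion G protein-coupled receptor, had a difference of 1.74 ± 0.50, made up mainly of responses of -0.70, -2.24 and -1.68 in D, E and F against 0.46, 0.28 and 0.00 in A, B and C. RNF11, a RING-type ubiquitin ligase, had a difference of 0.88 ± 0.29. For BOLA3 and DCUN1D5 the arms already lay apart in the control cycle, where all animals of the P4 arm had the higher levels. Their treated levels overlapped. For HSD17B14, DERA, ADGRG6 and RNF11 the control levels of the arms overlapped. The part of the control levels in the differences of this set was not tested.

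The largest positive estimates in the set were those of FUT1 and ADAM23, and both rest on few libraries. FUT1, the fucosyltransferase that makes the H antigen on cell surface glycans, had 5.60, 7.08 and 17.1 CPM in treated A, B and C, against 3.16, 19.9 and 11.7 CPM in controls. For the P4 arm it stood at 13.3, 1.86 and 6.15 CPM treated, against 39.9, 14.1 and 207 CPM in control libraries of D, E and F. The control library of F alone held the value of 207 CPM, and the response of B, at -1.48, was close to that of D, at -1.58. ADAM23, an ADAM family protein without protease activity, was below 1 CPM in all day 7 libraries but those of C, where it had 9.61 CPM treated and 9.69 CPM in control.

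Among the 10 genes with the smallest p and a lower response in the 17-OHPC/P4 arm, NR1I3 had the smallest p of all genes (unadjusted p = 0.000838, adjusted p = 1, edgeR's quasi-likelihood test). NR1I3 (ENSBTAG00000009215) encodes the constitutive androstane receptor, a nuclear receptor that senses steroids and xenobiotics in liver. It had 0.384, 0.506 and 0.192 CPM in treated A, B and C, against 0.508, 0.567 and 0.294 CPM in their controls. In D, E and F it had 0.739, 1.34 and 0.988 CPM treated, against 0.143, 0.139 and 0.168 CPM in control libraries. Every P4 arm animal was higher in its treated than in its control library, and every 17-OHPC/P4 animal was slightly lower. The difference was -3.08 ± 0.68 (SE, 95% interval -4.57 to -1.59). It kept its direction in all alternatives that tested it, at -3.25 to -2.69, and the smallest adjusted p among them was 0.155. These levels are near or under 1 CPM, and the control values of the arms did not overlap.

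**Figure D2:**
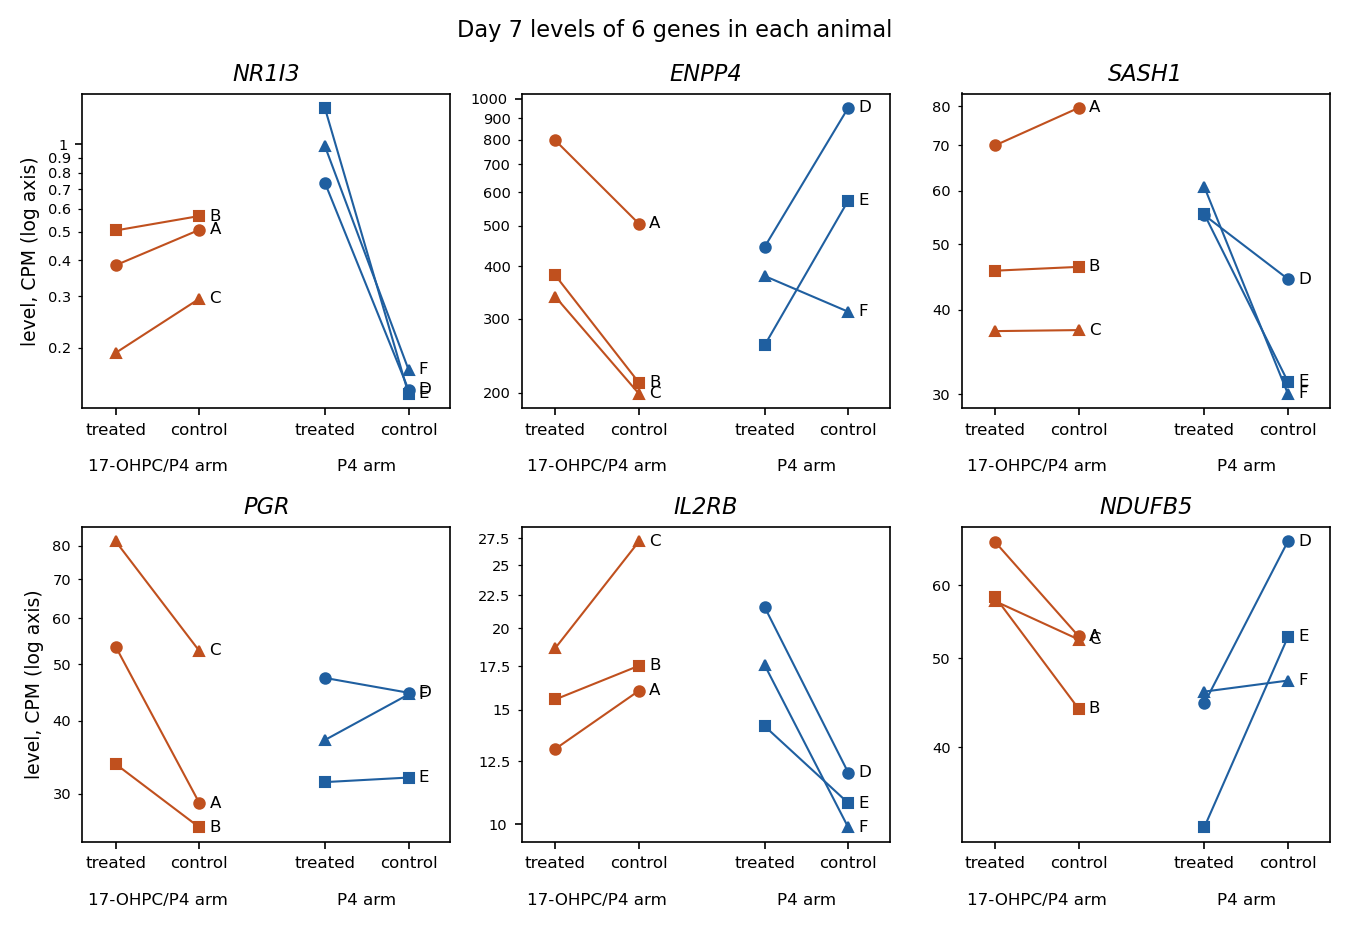
Level in CPM (log axis) of NR1I3, ENPP4, SASH1, PGR, IL2RB and NDUFB5 in the treated and control day 7 libraries of each animal, joined by a line, with the 17-OHPC/P4 arm (A to C, orange) left of the P4 arm (D to F, blue). The lines of the arms run in opposite directions for NR1I3 and IL2RB, whereas for ENPP4 animal F runs with A to C.

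C16orf96, DUOX2 and MTCL3 followed NR1I3 with the same sign pattern, negative in A to C and positive in D to F, and were also found at low levels. C16orf96 ranged over 0.056 to 0.589 CPM and had a difference of -3.19 ± 0.74. Its control levels were 0.169, 0.298 and 0.589 CPM in A, B and C, against 0.0717, 0.0693 and 0.056 CPM in D, E and F. At such levels the size is uncertain, and it was -3.33 to -2.37 over the alternatives that tested it. DUOX2, an oxidase that makes hydrogen peroxide at mucosal surfaces, had 0.064, 0 and 0.137 CPM in treated A, B and C, against 0.169, 0.0895 and 0.54 CPM in controls. In treated D, E and F it had 0.211, 0.988 and 1.61 CPM, against 0, 0.0693 and 0.224 CPM in controls, and since 2 libraries are at 0 its fitted difference is not given as a size. MTCL3, a microtubule cross-linking factor, had 0 CPM in the control library of D. Control levels of the arms did not overlap for C16orf96 and MTCL3, but overlapped for DUOX2.

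The other 6 genes of this set had smaller differences. SASH1 (ENSBTAG00000001826), a scaffold protein of receptor signalling, had 70.0, 45.7 and 37.2 CPM in treated A, B and C, against 79.5, 46.3 and 37.3 CPM in controls. Values in D, E and F were 55.2, 55.4 and 60.8 CPM treated, against 44.4, 31.3 and 30.0 CPM in control libraries. The 17-OHPC/P4 arm was thus level between its cycles and the P4 arm was higher when treated, with a difference of -0.79 ± 0.21 (SE). HOXB3, a homeobox transcription factor of the anterior-posterior series, had responses of -0.28, -0.36 and -0.17 in A, B and C, against 0.55, 0.48 and 0.14 in D, E and F, a difference of -0.67 ± 0.18. DNASE1, a secreted DNA-degrading enzyme, had a difference of -0.90 ± 0.24, and BCL9L, a coactivator of beta-catenin, one of -0.73 ± 0.20. Both had negative responses in A to C and positive ones in D to F. The same pattern held for PLEKHM3, at -1.39 ± 0.38, but not for FAM168A, at -1.19 ± 0.32, where A had a response of 0.14. Control levels of the arms did not overlap for PLEKHM3, FAM168A and BCL9L, but overlapped for SASH1, HOXB3 and DNASE1. PLEKHM3 had 7.34, 6.83 and 6.09 CPM in control A, B and C, against 2.90, 3.08 and 3.64 CPM in control D, E and F. Its treated levels overlapped. The part of the control levels in these differences was not tested.

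**Figure D3:**
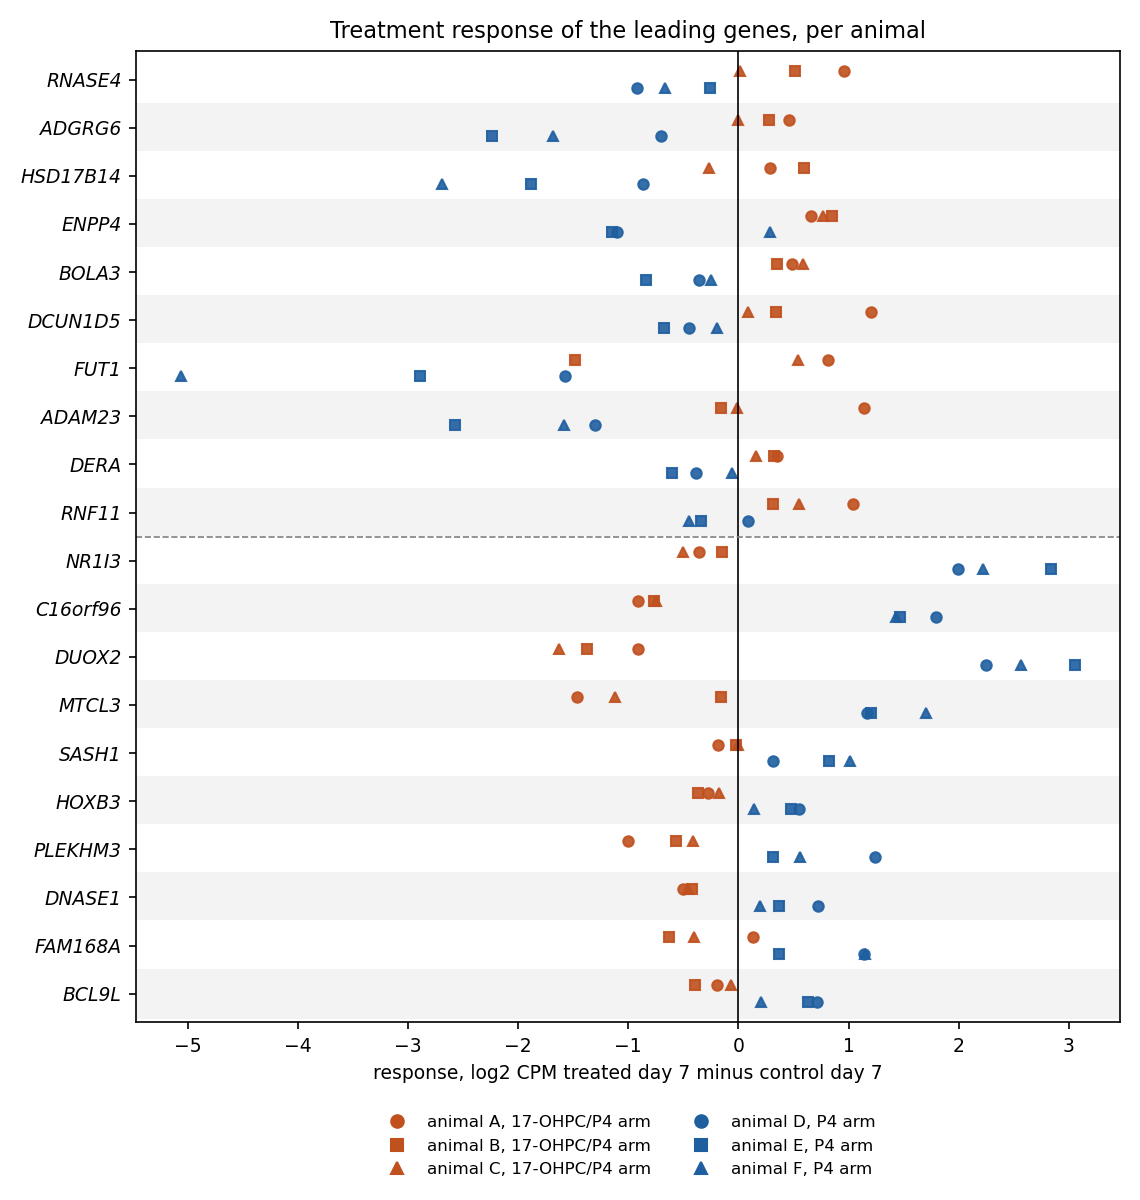
Response of the 20 leading genes, as log2 CPM on treated day 7 minus control day 7, with 1 point per animal and the 17-OHPC/P4 arm (orange) above the P4 arm (blue) in each row. Genes above the dashed line have the higher response in the 17-OHPC/P4 arm and those under it the lower one. The points of the arms do not overlap in any of the 20 rows, which the choice by p favours, and the closest approach is FUT1, at -1.48 in B against -1.58 in D.

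A gene without a symbol in the table, ENSBTAG00000000524, was taken up after its values were seen because DESeq2 called it. It had 789, 750 and 686 CPM in treated A, B and C, against 451, 506 and 468 CPM in controls. Animals D, E and F had 557, 275 and 417 CPM treated, against 602, 431 and 471 CPM in control libraries. All 3 responses of the 17-OHPC/P4 arm were positive, at 0.81, 0.57 and 0.55, against -0.11, -0.65 and -0.17 in the P4 arm. DESeq2 gave a difference of 0.99 with an adjusted p of 0.0384, and edgeR 0.95 ± 0.24 (SE) with an unadjusted p of 0.00253 and an adjusted p of 1. The other 2 genes DESeq2 called were EDARADD and EPHA3. Both were at 0 in several day 7 libraries and no higher than 0.537 CPM in any, so no size is given, and their unadjusted p was 0.261 and 0.22 with edgeR.

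Within each arm, the genes with the smallest p for treated against control are set beside the responses of the other arm. Choosing genes by p in 1 arm favours a larger response there than in the other arm. The 5 genes leading the negative response of the 17-OHPC/P4 arm were IL4R, ALDOC, KRT15, TMPRSS4 and TNFSF10, all with adjusted p = 0.87 (edgeR's quasi-likelihood test). IL4R, the alpha chain of the interleukin-4 receptor, had responses of -0.99, -0.42 and -0.94 in A, B and C, against -0.05, -0.26 and -0.31 in D, E and F. KRT15, a keratin of basal epithelium, had -2.61, -4.00 and -1.79 in the 17-OHPC/P4 arm, against -1.98, -2.60 and -0.76 in the P4 arm. IL4R, ALDOC and KRT15 were thus negative in all 6 animals, whereas TMPRSS4, a membrane serine protease, was positive in E and F, and TNFSF10, the death receptor ligand TRAIL, was positive in D. The difference between arms was -0.58 ± 0.20 for IL4R and -1.23 ± 0.93 for KRT15.

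The 5 genes leading the positive response of the 17-OHPC/P4 arm were SMCO4, GATC, TOPORS, LRRC1 and TBCEL. SMCO4, a small single-pass membrane protein, had responses of 1.28, 0.85 and 0.86 in A, B and C, against -0.11, -0.51 and 0.33 in D, E and F. LRRC1, a scaffold protein of epithelial cell junctions, had 1.12, 0.48 and 0.66, against -0.19, -0.50 and 0.42. In both genes the value of F was the highest of the P4 arm.

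In the P4 arm the positive leaders were NR1I3, SASH1, NEK8, ZKSCAN8 and ULK1, of which the first 2 also led the difference between arms. The P4 response is a term of that difference, so the shared genes are favoured by the choice. ULK1, the kinase that starts autophagy, had responses of -0.12, 0.06 and -0.05 in A, B and C, against 0.25, 0.76 and 0.67 in D, E and F. NEK8, a kinase of the primary cilium, had -0.06, 0.16 and -0.01, against 0.51, 0.60 and 0.87. Control levels of the arms did not overlap for either gene, with those of the P4 arm lower for ULK1 and higher for NEK8. The part of the control levels in these responses was not tested. The negative leaders were FCGR2B, LGALS3, RNASET2, CD14 and CD44, the first an inhibitory antibody receptor of myeloid and B cells and CD14 a receptor of macrophages for bacterial lipopolysaccharide. CD14 had responses of -2.82, -1.04 and -1.86 in A, B and C, against -1.94, -3.83 and -2.36 in D, E and F. FCGR2B, RNASET2, CD14 and CD44 were negative in all 6 animals, and their differences between arms were 1.46 ± 0.87, 0.05 ± 0.33, 0.67 ± 0.85 and 0.13 ± 0.59 (SE). LGALS3, the beta-galactoside-binding galectin-3, was the exception, at 0.71 in A.

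Of the 12 receptors for progestins, estrogens, glucocorticoids and androgens, 6 had a positive and 6 a negative difference, and none was called. PGR (ENSBTAG00000024648) had 53.6, 33.7 and 81.4 CPM in treated A, B and C, against 28.9, 26.3 and 52.7 CPM in controls. In D, E and F it had 47.4, 31.4 and 37.1 CPM treated, against 44.7, 32.0 and 44.4 CPM in control libraries. All 3 animals of the 17-OHPC/P4 arm were higher when treated, and D to F were within 0.26 log2 units of their control. The responses did not overlap, and the difference was 0.68 ± 0.35 (SE, 95% interval -0.09 to 1.46, unadjusted p = 0.0793, adjusted p = 1, edgeR's quasi-likelihood test). It stayed positive in every alternative, at 0.58 to 0.84. PAQR5, a membrane progestin receptor, pointed the other way, with responses of -0.87, 0.02 and -0.58 in A, B and C, against 0.26, 0.83 and 0.48 in D, E and F, and a difference of -1.08 ± 0.53. ESR1, the estrogen receptor alpha, had a difference of -0.12 ± 0.43 (95% interval -1.07 to 0.82).

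Genes known to respond to progesterone or glucocorticoid in ruminant or other endometrium gave wide intervals around 0. FKBP5 and TSC22D3, both induced through the glucocorticoid receptor and in human endometrium by progestins, had differences of 0.16 ± 0.58 and 0.70 ± 0.47. Most of the wider list of glucocorticoid- and progestin-induced genes pointed the other way. Of its 15 tested members, 3 were positive and 12 negative, with a median of -0.41, and 0.12 without D. None stood at an unadjusted p under 0.05. DGAT2, an enzyme of triglyceride synthesis, had 0.32 ± 0.80. MSTN, which encodes myostatin, had -0.98 ± 1.82. LTF, which encodes the iron-binding milk protein lactoferrin, had -0.93 ± 2.08, and TINAGL1, a matrix protein, had -1.33 ± 2.25. The large errors come with animals of 1 arm on opposite sides of 0: TINAGL1 had responses of -6.01, -0.53 and -1.46 in A, B and C, against -5.09, 1.07 and -1.13 in D, E and F. For prostaglandin and oxytocin genes, PTGS2, the inducible cyclooxygenase, had -0.69 ± 2.23, AKR1B1, the bovine prostaglandin F synthase, had 0.09 ± 0.86, HPGD, which inactivates prostaglandins, had 1.04 ± 1.13, and OXTR, the oxytocin receptor, had -0.10 ± 0.92. IHH, the epithelial hedgehog ligand downstream of PGR, had -0.52 ± 0.95, and HAND2, a stromal transcription factor downstream of PGR, had 0.53 ± 1.21.

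**Figure D4:**
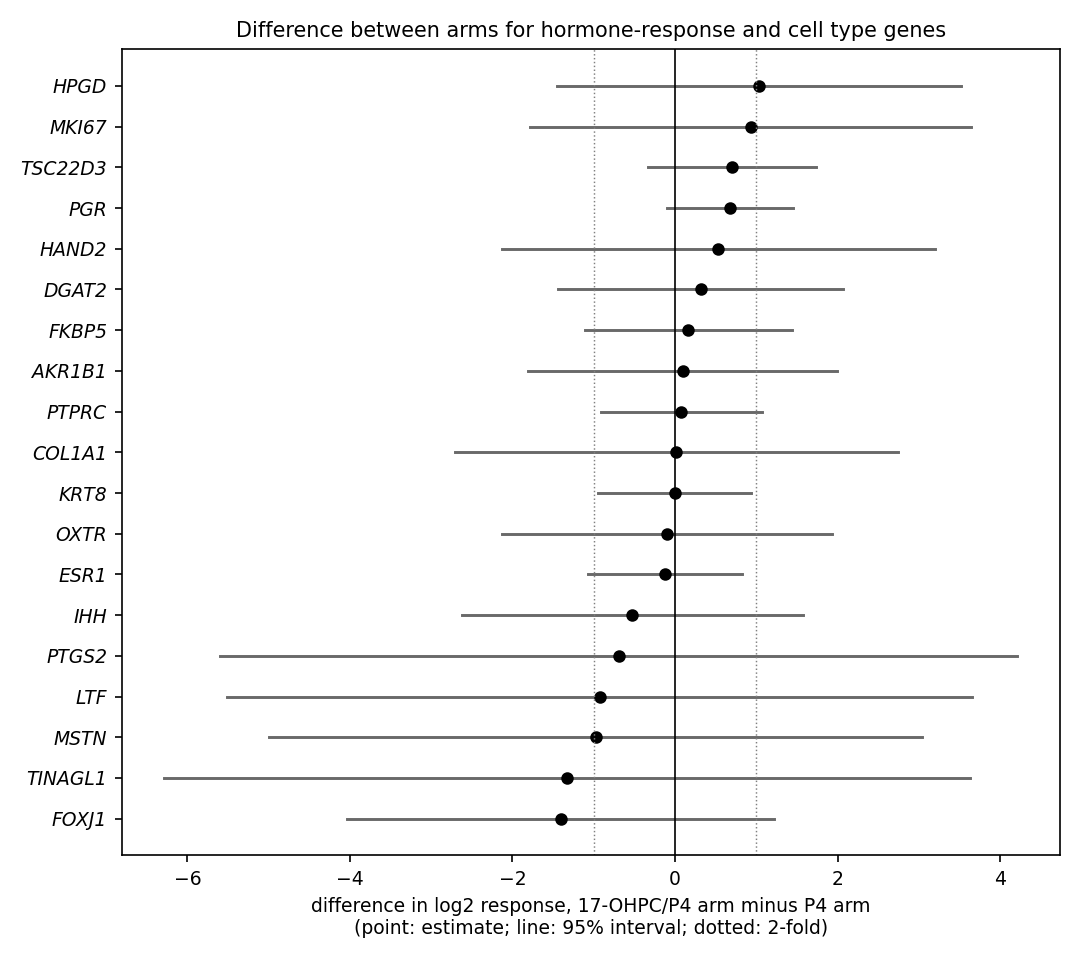
Difference in log2 response, 17-OHPC/P4 arm minus P4 arm, of 19 hormone-response and cell type genes, with the estimate as a point and its 95% interval as a line. All 19 intervals include 0, and only that of KRT8, -0.94 to 0.93, lies within the dotted 2-fold limits, while that of TINAGL1 runs from -6.28 to 3.63.

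Wider lists of hormone-related genes had few members at an unadjusted p under 0.05. The list of early luteal progesterone-responsive genes had 32 tested members, of which 16 were positive and 16 negative, with a median difference of 0.01. One member stood at an unadjusted p under 0.05, a share near the 2.51% of all genes in either direction: PENK, the enkephalin precursor, with responses of -0.28, -2.15 and -0.63 in A, B and C, against 0.69, 1.59 and 4.23 in D, E and F, and a difference of -3.32 ± 1.18. Among 21 PGR and Indian hedgehog targets, 5 were positive, the median was -0.69, and 1 was non-overlapping in the lower direction, a share near the 4.24% of all genes. None stood at an unadjusted p under 0.05. Of these, LIF, the leukemia inhibitory factor, had -1.77 ± 0.86, the insulin receptor substrate IRS2 -1.41 ± 0.69 and the hedgehog effector GLI1 -1.47 ± 0.80. The median of this list was -1.22 without F and -0.14 without D. Of the 15 steroid-metabolizing enzymes, HSD17B14 and HSD17B1 stood at an unadjusted p under 0.05 (background 0.998% in the higher direction), with HSD17B1, which reduces estrone to estradiol, at 2.01 ± 0.83. A stricter filter on low counts removed both HSD17B14 and HSD17B1, so it did not test them again. Of the 11 enzymes it kept, 0 stood at that threshold. CYP11A1, the side-chain cleavage enzyme that begins steroid synthesis, had -2.01 ± 0.98.

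The list with the largest share of non-overlapping members in the lower direction was that of T and NK cell markers. Of 23 tested members, 21 had a negative difference, 5 stood at an unadjusted p under 0.05 (background 1.51%), 10 had all 3 responses of the 17-OHPC/P4 arm below those of the P4 arm (background 4.24%), and 0 were called. The median difference was -0.69, against -0.05 over all genes. IL2RB (ENSBTAG00000016345), a receptor chain for interleukin-2 and interleukin-15, had 13.1, 15.6 and 18.7 CPM in treated A, B and C, against 16.0, 17.5 and 27.2 CPM in controls. D, E and F had 21.6, 14.1 and 17.6 CPM treated, against 12.002, 10.8 and 9.89 CPM in control libraries. Every 17-OHPC/P4 animal was lower and every P4 animal higher in the treated cycle, and the difference was -1.02 ± 0.30 (SE, unadjusted p = 0.00609, adjusted p = 1, edgeR's quasi-likelihood test). CD96, a receptor of T and NK cells, had -0.91 ± 0.36, and the T cell receptor signalling chains CD3E and CD3D had -0.69 ± 0.29 and -0.80 ± 0.34. LCK, the kinase that starts T cell receptor signalling, had -0.91 ± 0.39, but overlapped through F, at -0.49.

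The T and NK cell markers already stood at other levels in the control cycle. CD3E had 24.1, 25.4 and 23.5 CPM in the control libraries of A, B and C, against 7.88, 13.6 and 14.5 CPM in those of D, E and F. In treated libraries it had 17.3, 22.0 and 17.8 CPM in the 17-OHPC/P4 arm, against 11.8, 16.9 and 15.1 CPM in the P4 arm. The summed level of the 23 markers was 115 to 172 CPM in treated and 162 to 232 CPM in control libraries of the 17-OHPC/P4 arm. Across the P4 arm it was 145 to 151 CPM in treated and 104 to 141 CPM in control libraries. The arms thus lay closer together in the treated cycle than in the control cycle. The part of the control levels in the difference was not tested. The list median stayed between -0.72 and -0.52 in all 14 alternatives. The count of markers at an unadjusted p under 0.05 was less steady, at 1 without B, D or E and 7 without F.

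Nuclear-encoded subunits of the respiratory chain, which make up complexes that carry electrons to oxygen in mitochondria, lay on the other side. All 31 tested members had a positive difference, with a median of 0.35. Of these, 4 stood at an unadjusted p under 0.05 (background 0.998%), 10 were non-overlapping in the higher direction (background 3.71%), and 0 were called. NDUFB5 (ENSBTAG00000002463), a subunit of complex I, had 66.9, 58.3 and 57.7 CPM in treated A, B and C, against 52.8, 44.0 and 52.4 CPM in controls. The values in D, E and F were 44.6, 32.7 and 46.0 CPM treated, against 67.0, 52.7 and 47.3 CPM in control libraries. The difference was 0.74 ± 0.25 (SE, 95% interval 0.18 to 1.29). COX7A2 and COX6C, subunits of complex IV, had 0.70 ± 0.30 and 0.60 ± 0.31. SDHD, an anchor subunit of complex II, had 0.57 ± 0.26, and NDUFV2, of complex I, 0.46 ± 0.20.

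Animal F parted from its arm in this list too. The median response of the 31 subunits was 0.28, 0.14 and 0.23 in A, B and C, against -0.32, -0.38 and 0.37 in D, E and F. Their summed level was 4961 to 6068 CPM in treated and 4357 to 5017 CPM in control libraries of the 17-OHPC/P4 arm. Across the P4 arm it was 4152 to 5420 CPM in treated and 4169 to 6020 CPM in control libraries. The list median was 0.19 to 0.53 over the 14 alternatives, lowest without E and highest without F. The count of subunits at an unadjusted p under 0.05 was 0 without E, 1 with no replicate block and 8 without F. The 13 mitochondrially encoded genes did not share the pattern, with 8 positive, a median of 0.07 and 0 non-overlapping.

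Cell division genes had 27 of 30 differences positive and a median of 0.78, but this rested largely on F. The median response of the list was 0.20, -0.13 and -0.29 in A, B and C, against -0.67, 0.23 and -2.28 in D, E and F. Without F the median difference was 0.19, with 21 of 30 positive. RRM2, the ribonucleotide reductase subunit made for DNA synthesis, had 1.55, 3.25 and 1.11 CPM in treated D, E and F, against 5.88, 5.20 and 23.1 CPM in their controls, and a difference of 2.01 ± 1.15. CCNA2, cyclin A2, and AURKA, a mitotic kinase, had 1.65 ± 1.21 and 0.97 ± 0.88. E2F1, a transcription factor of the G1 to S transition, had 0.71 ± 0.61. RRM2, CCNA2, AURKA and E2F1 were the 4 non-overlapping members of 30 (background 3.71%), none of the 30 stood at an unadjusted p under 0.05, and MKI67, the proliferation marker Ki-67, had 0.93 ± 1.23.

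Ciliated cell markers showed the widest split inside an arm. All 18 tested members had a negative difference, with a median of -1.01, yet 0 were non-overlapping and 0 stood at an unadjusted p under 0.05. FOXJ1, the transcription factor that directs the formation of motile cilia, had 11.2, 104 and 43.3 CPM in treated A, B and C, against 34.1, 122 and 43.9 CPM in controls. In D, E and F it had 72.3, 49.4 and 22.4 CPM treated, against 11.4, 9.01 and 111 CPM in control libraries. D and E were several-fold higher when treated and F several-fold lower, and the list medians per animal were -1.46, -0.40 and 0.13 in A, B and C, against 2.37, 1.85 and -2.49 in D, E and F. The axonemal dynein gene DNAH5 followed FOXJ1, at -1.35 ± 1.19. The summed level of the 18 markers was 98.3 to 638 CPM in treated and 257 to 859 CPM in control libraries of the 17-OHPC/P4 arm. Across the P4 arm it was 147 to 639 CPM in treated and 90.1 to 769 CPM in control libraries. Without F the list median was -2.79 and 16 of 18 members stood at an unadjusted p under 0.05, all lower in the 17-OHPC/P4 arm, where 9.6% of all genes did so in that direction, FOXJ1 with an adjusted p of 0.0895 (edgeR's quasi-likelihood test). Without D the median was 0.18.

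**Figure D5:**
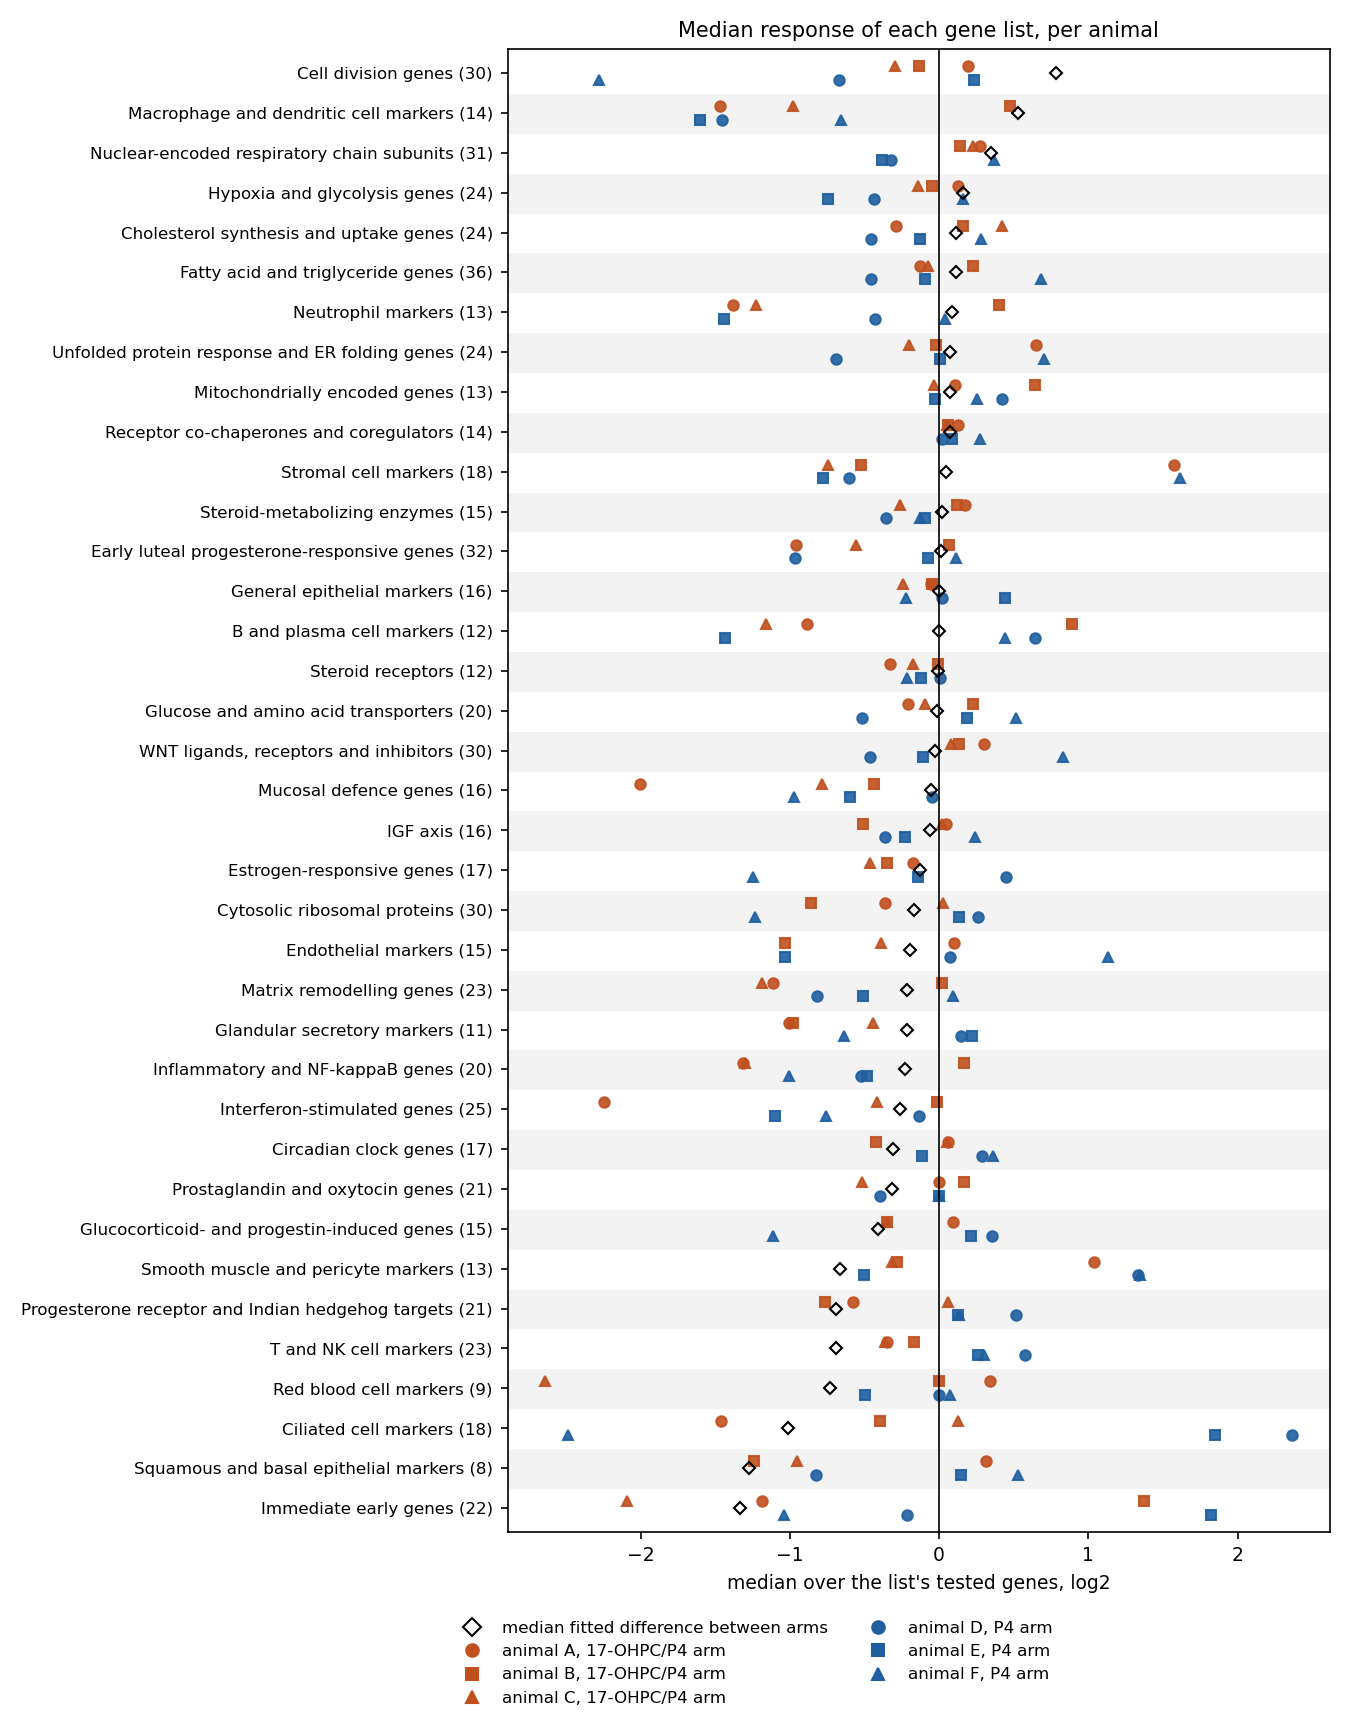
Median response of the tested genes of each of 37 lists (number of genes in brackets) in each animal, with the 17-OHPC/P4 arm (orange) above the P4 arm (blue) in each row, and the median fitted difference between arms as an open diamond. T and NK cell markers are the row with all orange points left of 0 and all blue points right of it, and the ciliated cell row runs from -2.49 in F to 2.37 in D, both of the P4 arm.

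Immediate early genes, which are induced within minutes of a stimulus and by handling of tissue, had 19 of 22 differences negative and a median of -1.33. The median response was -1.19, 1.38 and -2.09 in A, B and C, against -0.22, 1.83 and -1.04 in D, E and F, so animals of each arm lay on both sides of 0. Without E the median was 0.10 with 11 of 22 positive, and without C it was -0.28. The orphan nuclear receptor NR4A2 had -2.34 ± 0.93 and the stress-induced ATF3 had -3.33 ± 1.75. Their summed level in C was 1078 CPM in the treated and 6108 CPM in the control library, the library that also held the most red blood cell RNA.

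In a few other lists a single member stood at an unadjusted p under 0.05, which 2.51% of all genes did. RIGI, the cytosolic RNA sensor, had responses of 0.46, 0.80 and 0.58 in A, B and C, against 0.11, -0.36 and 0.25 in D, E and F (difference 0.64 ± 0.28). It was the only one of 25 interferon-stimulated genes at that threshold. Of the 25, 20 had a negative difference and the median was -0.26, but without A 19 were positive with a median of 0.44, and without D 13 were positive with a median of 0.02. AXIN2, a target and inhibitor of WNT signalling, had 0.83 ± 0.36 among 30 WNT genes with a median of -0.03. ADAMTS1, a matrix protease known in mouse as a PGR target, had -1.97 ± 0.83 among 23 matrix remodelling genes, of which 9 were positive. The median of that list was -0.22, and 0.17 without F. TGM1, the transglutaminase of squamous epithelium, had -1.72 ± 0.59 among 8 squamous and basal markers, of which 3 were positive. Of the 21 tested genes of the prostaglandin and oxytocin list, 1 was non-overlapping and higher and 1 non-overlapping and lower. These shares are near the 3.71% and 4.24% of all genes. The higher one was PTGR1, which degrades prostaglandins, and the lower one PTGFR, the prostaglandin F receptor. Their differences were 0.54 ± 0.35 and -2.23 ± 1.49, and neither reached that threshold (unadjusted p = 0.147 and 0.163, edgeR's quasi-likelihood test). EGLN1, an oxygen-sensing hydroxylase, had 0.66 ± 0.33 (unadjusted p = 0.0732), and MEP1B, the metalloprotease meprin beta, had 1.06 ± 0.56 (unadjusted p = 0.084), both short of it as well. MEP1B was positive in F, at 1.25, as in A to C.

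No member of any of the 37 lists was called, and the list medians ran from -1.33 for immediate early genes to 0.78 for cell division genes. Most list medians changed sign in at least 1 alternative. Those of T and NK cell markers, respiratory chain subunits, cell division genes and PGR and Indian hedgehog targets kept theirs in all 14. So did those of prostaglandin and oxytocin genes, hypoxia and glycolysis genes, and glandular secretory, squamous and basal, and smooth muscle and pericyte markers. For every cell type list other than T and NK cell markers the per-animal medians of the arms overlapped. Stromal cell markers had 11 of 18 differences positive and a median of 0.05, and COL1A1, the fibrillar collagen chain of stroma, had 0.02 ± 1.24. Their median response was 1.58, -0.52 and -0.75 in A, B and C, against -0.60, -0.78 and 1.62 in D, E and F. Macrophage and dendritic cell markers had 12 of 14 differences positive and a median of 0.53, with negative median responses in A, C, D, E and F. Without B, 6 of the 14 were positive and the median was -0.08, and without A the median was 1.10. Their summed level was 45.8 to 208 CPM in treated and 137 to 423 CPM in control libraries of the 17-OHPC/P4 arm. In the P4 arm it was 71.7 to 180 CPM in treated and 136 to 489 CPM in control libraries. General epithelial markers had a median of 0.00 over 16 genes. PTPRC, on all leukocytes, had 0.08 ± 0.45 and KRT8, on all simple epithelia, 0.00 ± 0.43.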

How the data were processed

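Cytobrush RNA was sequenced as poly(A) libraries with paired reads on a DNBSEQ-G400, per the labels' protocols. The deposited table holds raw gene counts made by the authors; cutadapt, FastQC, STAR, featureCounts and DESeq2 are named in the submitters' processing notes. The genome build, gene annotation, strandedness and handling of read pairs were not given in the sources used here, no coordinates are used, and 0 identifiers matched the RefSeq table. Of the deposited counts between 1 and 5, 79.1% were even, so the 2 reads of a pair may have been counted separately and a count is not taken as an independent fragment. Antisense and overlapping genes cannot be told apart.

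Genes were filtered with filterByExpr and fitted with edgeR 4.0.16 (R 4.3.3) by its robust quasi-likelihood test with TMM factors (0.881 to 1.16) over all 18 libraries, with a mean per animal and a treatment effect per arm, and p-values adjusted by the Benjamini-Hochberg method over 19638 genes. Standard errors are the estimate divided by the root of F, and 95% intervals follow from the t distribution. The biological coefficient of variation was 39.4%. Responses per animal use a prior count of 2. DESeq2 1.42.0, limma 3.58.1, other scalings and filters, the 12 day 7 libraries alone, no block, and each animal left out were alternatives. The fit was also run on simulated data in which the treatment effect did not vary between animals of an arm. That setting is simpler than these data, so nothing here rests on it.

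Animal pairs the libraries per the labels. Deviations of treated and control day 7 libraries from their group means correlated at 0.59, 0.43, 0.72, 0.08, 0.36 and -0.07 over genes in A to F. No pair of libraries of one group was identical.

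The comparison, members and 37 gene lists (749 symbols, 678 tested, 6 on several rows left out) were chosen with earlier results of these data known, so no list has a set test. Named genes are the 10 with the smallest p in each direction, 5 in each direction per arm response, up to 3 members with the smallest p per list, and 19 fixed genes. CD3D, LCK, COX6C, SDHD, AURKA, E2F1, RIGI, DNAH5 and EGLN1 were added where a list is described.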

Additional observations from a re-analysis of the deposited data

How the results depend on the processing

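With 3 cows per arm the median 95% half-width of a difference was 1.15 log2 units at 30112365 counts or more per day 7 library, and genes with 0 counts in some libraries, such as DUOX2, EDARADD and EPHA3, are limited by depth as well. The count of called genes for the difference was 0 in every edgeR and limma alternative and 3 with DESeq2, which called 8 genes for the 17-OHPC/P4 response and 23 for the P4 response. The count at an unadjusted p under 0.05, 492 in the paired analysis, was 247 with no replicate block and 772 with DESeq2, and 284 to 2763 with an animal left out. The smallest adjusted p of the P4 response was 0.0656 without D and 0.112 without F. The cause of these shifts was not tested. Scaling moved the median difference of all genes by less than 0.1.

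Sign changes touched genes whose difference is near 0 or whose error is large. With no replicate block, HAND2 was -0.29 and KRT8 0.044. With the 12 day 7 libraries, OXTR was 0.10 and COL1A1 -0.19. COL1A1 was -0.0171 with plain library size. KRT8 was 0.0192 with DESeq2 size factors in edgeR, 0.0191 with DESeq2 and 0.0377 with no filter. With limma, OXTR was 0.10, COL1A1 -0.20 and PTPRC -0.00187. With an animal left out, the ranges were -0.21 to 1.51 for HAND2, -0.46 to 0.34 for KRT8, -0.95 to 1.01 for OXTR, -0.81 to 1.004 for COL1A1 and -0.20 to 0.28 for PTPRC. They were -3.12 to 0.90 for TINAGL1, -0.20 to 0.50 for FKBP5, -0.23 to 0.37 for RNASET2, -0.25 to 0.83 for CD44 and -0.61 to 0.32 for ESR1. They were -0.40 to 1.03 for AKR1B1, -0.995 to 0.0148 for IHH, -3.25 to 1.36 for LTF, -2.53 to 0.83 for MSTN and -2.26 to 1.78 for PTGS2.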

Other observations

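Day 4 of the untreated cycle gives a further level for the leading genes. NR1I3 had 0.366, 0.280 and 0.447 CPM on day 4 in A, B and C, against 0.85, 0.790 and 1.19 CPM in D, E and F. The treated day 7 levels of the P4 arm, 0.739, 1.34 and 0.988 CPM, thus lay near its own day 4 levels, while its control day 7 levels, 0.143, 0.139 and 0.168 CPM, lay below both. HOXB3 had 79.8, 64.9 and 91.4 CPM on day 4 in D, E and F, against 75.8, 45.6 and 60.6 CPM on treated and 51.8, 32.7 and 54.9 CPM on control day 7. RNASE4 had 21.9, 32.0 and 21.2 CPM on day 4 in A, B and C, against 13.4, 5.13 and 8.13 CPM in D, E and F, so the day 4 levels of the arms did not overlap. These levels were not tested.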
